A study of Homo sapiens with 6 samples.

Results

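The genes described here are 49 transcription factor genes of the SOX, FOX, GATA and T-box families, taken from the 58884 genes of the count table by matching their Ensembl identifiers to GENCODE symbols. They comprise 17 SOX, 18 FOX, 4 GATA and 10 T-box genes. RNA was sequenced from DLD1, a human colorectal cancer cell line that carries a helical-domain mutation of PIK3CA, the gene for the p110α subunit of PI3K. The comparison was between parental DLD1 cells (n = 3 libraries) and DLD1 cells with K477A and R478A changes knocked into the endogenous PIK3R2 gene (n = 3 libraries), called KR-AA after the residues exchanged. PIK3R2 encodes p85β, a regulatory subunit of PI3K, and the changed residues lie in its nuclear localization sequence. No treatment or time point was recorded for either group, so both share the DLD1 background and differ in the labels by the PIK3R2 knock-in.

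The study asked whether p85β in the nucleus regulates gene expression. Its knock-in cells were isolated as clones, and 2 independently derived clones are described, but the libraries do not name the clone they came from. For replicates 2 and 3 of KR-AA the source name in the labels reads R479A and R480A, whereas the titles of all 3 libraries read R478A. Nothing in the labels says that the replicates are separate cultures, so the p-values measure only the spread between these libraries, which may be technical. Effects of the knock-in and of the isolation of single clones cannot be told apart in this design.

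SOX proteins bind DNA through an HMG box, FOX proteins through a forkhead domain, GATA proteins through zinc fingers, and T-box proteins through the T-box domain. In the embryo these families direct the formation of germ layers and organs, and many of their genes lie in CpG-rich regions that Polycomb keeps silent in cells that do not use them. In the intestine FOXA factors take part in endoderm identity, SOX9 marks the crypt, FOXL1 and the FOXF genes belong to the mesenchyme under the epithelium, and TBXT, or brachyury, marks the primitive streak and the notochord.

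The deposited estimated counts summed to between 20301932 and 20873475 in the parental libraries and between 20301396 and 26712816 in the KR-AA libraries. Levels are given as counts, or as CPM (the count scaled to the TMM-normalized size of the library). A gene with at most 3 counts in every library was treated as not detectable, a limit that covers counting error only. On the CPM scale 3 counts were worth 0.185 to 0.218 CPM in parental and 0.0818 to 0.109 CPM in KR-AA libraries. A gene was called when its fold change was at least 3 and its adjusted p was under 0.01 in edgeR's quasi-likelihood test with Benjamini-Hochberg adjustment over 16059 tested genes. The median log2 fold change of these genes, KR-AA over parental, was 0.32, and scaling by library totals in place of TMM moved it to 1.24. Colonic epithelial markers were present in both groups, and their summed level was 47610 to 65770 CPM in parental and 7172 to 8416 CPM in KR-AA libraries. The keratins KRT8 and KRT18 carried this sum, with 46760 to 64980 CPM in parental and 6533 to 7771 CPM in KR-AA libraries, while the other 8 markers summed to 760.5 to 854.7 and 638.6 to 647.4 CPM. Of the 10 listed, 2 rose, including the adhesion gene CDH1, 5 fell, including CDX2, and CDX1 had at most 3 counts in any library. The summed level of 12 mesenchymal markers was 12.02 to 16.41 CPM in parental and 6328 to 7241 CPM in KR-AA libraries. FN1 (4602 to 5416 CPM) and VIM (1693 to 1828 CPM) carried the KR-AA sum, and no other marker of this list was above 9.0 CPM in any library. VIM and FN1 were 2 of the 5 that rose, while PDGFRA had no count in any library and THY1 and COL1A2 at most 1. Of 10 neuron markers 4 could be tested and 3 rose, among them the neurofilament gene NEFL with no parental count and 4773, 3752 and 3672 counts in KR-AA libraries, while the counts of DCX and ELAVL4 were 0 throughout. The summed level of the neuron markers was 520.8 to 608.3 CPM in parental and 341.7 to 363.6 CPM in KR-AA libraries. The tubulin gene TUBB3 carried most of it, with 519.8 to 607.4 CPM in parental and 204.0 to 224.1 CPM in KR-AA libraries (log2 fold change -1.41, not called). NEFL made up 130.2 to 133.8 CPM of the KR-AA sum. Of 8 blood markers 1 could be tested and none was called, and their sum was 5.31 to 7.21 and 4.28 to 5.58 CPM. Beside these marker counts, 28.6% of all genes tested were called higher and 17.6% lower. NEFL and NEFM, and the mesenchymal COL3A1, DCN and LUM, had no parental count and could be tested only through their KR-AA counts. As these are bulk samples, fewer cells of a type and less RNA per cell cannot be told apart, and the part of these markers in the results below was not tested.

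Of the 49 genes, 30 could be tested, 12 were called higher in KR-AA cells and 3 lower. These are 40% and 10% of the tested genes, beside 28.6% called higher, 17.6% called lower and 46.2% called in either direction among all genes tested. With scaling by library totals in place of TMM the calls were 19 higher and 1 lower, which adds SOX4, FOXA1, FOXL1, FOXP1, FOXN1, TBX3 and TBX1 and loses SOX8 and SOX18. Of the 12 genes called higher, 8 passed the low-count filter only through the KR-AA libraries, so the counts are a description of these genes. The 12 were TBXT, TBX2, TBX18, FOXF1, FOXF2, FOXC1, FOXL2, FOXO1, FOXO3, SOX6, SOX7 and SOX9, and the 3 were FOXA3, SOX8 and SOX18. The median log2 fold change of the 30 was 1.11, or 0.70 without parental replicate 2, and 19 of them had a value above 0. In 19 genes every KR-AA library lay above every parental library and in 9 the order was the opposite, beside 47.0% and 36.5% of all genes tested. Only SOX13 and EOMES of the 30 overlapped between the groups.

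Of the 19 genes that could not be tested, 5 had no count in any library (SOX1, SOX5, SOX14, SOX17 and TBX20). Another 6 (SOX2, SOX11, FOXC2, FOXD3, TBX5 and TBX15) had counts but at most 3 in every library, so that 11 genes were not detectable at this depth in either group. The other 8 (SOX10, SOX21, FOXP2, FOXJ1, GATA3, GATA4, GATA5 and TBX4) had more than 3 counts in at least 1 library and are described with their families. At least 1 CPM on average was reached by 21 genes in parental and 27 in KR-AA cells.

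**Figure D1:**
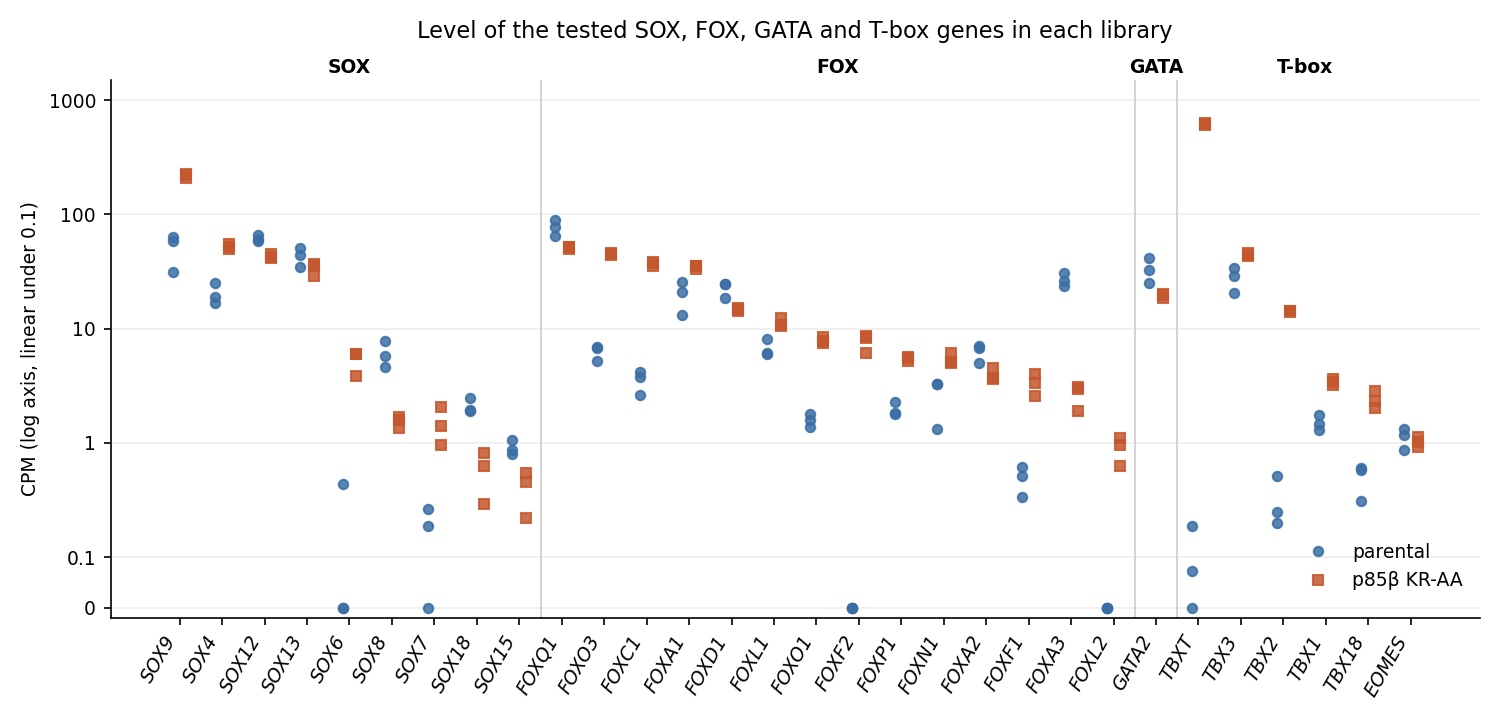
CPM (log axis, linear under 0.1) of the 30 tested genes in each library, circles for the 3 parental and squares for the 3 KR-AA libraries, grouped by family and ordered within it by the KR-AA level. TBXT goes from at most 0.185 CPM in parental libraries to between 610.0 and 631.9 CPM in KR-AA libraries, and FOXF2 and FOXL2 sit at 0 in every parental library.

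Compared per length, as CPM per kb of the deposited gene length, the leading genes differed between the groups. In parental cells the order was FOXQ1 (29.0 CPM per kb), GATA2 (17.6), FOXA3 (13.8), SOX12 (13.3) and SOX9 (12.98), and the values of FOXA3, SOX12 and SOX9 lay closer together than the spread of their libraries. In KR-AA cells TBXT came first with 254.0 ± 4.73 CPM per kb (SD, n = 3), followed by SOX9 (55.8), FOXQ1 (19.2), TBX3 (10.6) and GATA2 (10.3), of which the last pair lay within the spread of its libraries. TBXT stood 205th among all genes on this scale in KR-AA cells and 19410th in parental cells. The summed level of the T-box genes was 31.6 ± 6.07 CPM in parental and 684.2 ± 11.3 CPM in KR-AA cells (SD, n = 3), and TBXT made up 93.5% to 93.9% of the family per length in the latter. All 49 genes together summed to 426.3 ± 69.8 CPM in parental and 1292 ± 10.7 CPM in KR-AA cells, and to 673.1 ± 4.18 CPM in the latter without TBXT.

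TBXT (ENSG00000164458, chromosome 6) encodes brachyury, the founding T-box factor, which activates mesoderm genes in the primitive streak. Its parental libraries held 0, 1 and 3 counts, and its KR-AA libraries held 23165, 17521 and 16865. It was thus at or under the floor of 3 counts in every parental library and far above it in every KR-AA library. The ratio of the summed counts, scaled for library size, was 6974, with an exact 95% Poisson interval of 2724 to 25600 that covers counting error only, and the adjusted p from edgeR's quasi-likelihood test was 1.72e-11. Parental replicate 3 held 3 of the 4 parental counts, and the fitted log2 fold change, which depends on the prior count at this level, was 12.68 with all libraries, 13.89 without that replicate and 12.12 without parental replicate 1. 2 starts of TBXT are listed in the RefSeq promoter table, and the 250 bases before the proximal one are shown because this gene had the largest change of the 49. They lie at chr6:166167852-166168101 on the minus strand of GRCh38.p14, are printed 5′ to 3′ with CpG dinucleotides in capitals, and hold 22 of them.
TBXT: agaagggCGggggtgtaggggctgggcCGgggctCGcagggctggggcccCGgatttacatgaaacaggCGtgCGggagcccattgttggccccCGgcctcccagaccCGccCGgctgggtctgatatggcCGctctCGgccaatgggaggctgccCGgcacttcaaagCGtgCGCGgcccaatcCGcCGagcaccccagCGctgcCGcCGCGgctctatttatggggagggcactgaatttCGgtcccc
Across 35116 windows of 300 bases (250 before and 50 after a start) in that table the median number of CpG was 14, and over the 51 windows of the 30 genes found in it the median was 21.

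EOMES, which acts beside TBXT in mesendoderm, had 13, 18 and 19 counts in parental and 41, 29 and 25 in KR-AA libraries. These correspond to 1.11 ± 0.23 and 1.01 ± 0.10 CPM (SD, n = 3), the libraries of the groups overlapped, and the log2 fold change was -0.13 (adjusted p = 0.719, edgeR) or 0.79 with scaling by library totals. Of 10 genes that T-box factors or the primitive streak are known for, 3 were not detectable and 4 could be tested. Of these 4 none was called higher and MESP1, an early mesoderm factor, fell by 3.06 on the log2 scale (137, 250 and 218 counts in parental, 50, 58 and 41 in KR-AA libraries). At an unadjusted p under 0.05 edgeR gave 2 of the 4 as higher and 1 as lower, and DESeq2 called 0 higher and 1 lower. The calls of this list were 2 higher and 1 lower with scaling by library totals, and 1 higher and 0 lower with length and GC offsets, so that the MESP1 call was lost with the offsets. MIXL1, MSGN1 and CER1 had at most 1 count in any library, and GSC had 0 counts in all parental and 7, 14 and 21 in the KR-AA libraries. LHX1 had 0, 3 and 0 and then 15, 9 and 11 counts. NODAL went the other way, with 7, 11 and 16.74 counts in parental and 5.48, 5 and 4.98 in KR-AA libraries. GSC, LHX1 and NODAL could not be tested.

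TBX2, a repressor that restrains cell-cycle inhibitors, had 3, 7 and 4 counts in parental and 509, 409 and 388 in KR-AA libraries. The log2 fold change was 5.47 (SE 0.30, adjusted p = 8.72e-09, edgeR), and the groups did not overlap. TBX3, its close paralog with related repressor activity, was already at 434, 281 and 545 counts in parental cells and had 1591, 1255 and 1267 in KR-AA cells. Its log2 fold change of 0.68 (SE 0.18, adjusted p = 0.00323) was under the threshold of 1.58, the log2 of a fold of 3. Per length, TBX2 made up 0.833% to 2.83% of the TBX2, TBX3, TBX4 and TBX5 total in parental libraries and 27.2% to 28.5% in KR-AA libraries. TBX4, a limb and lung factor that starts 52.6 kb from TBX2 on chromosome 17, went the other way, with 2, 7 and 9 counts in parental and 2, 2 and 1 in KR-AA libraries. The parental level of TBX4 was 7.42 times that of KR-AA cells, with an exact 95% Poisson interval of 2.66 to 25.6, and it was too low to be tested by edgeR. TBX5, a heart and forelimb factor that starts 276 kb from TBX3, had a single count in all 6 libraries.

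TBX18, a factor of epicardium and ureter mesenchyme, had 9, 8 and 5 counts in parental and 104, 58 and 64 in KR-AA libraries, a log2 fold change of 2.28 (SE 0.36, adjusted p = 6.26e-05, edgeR). With length and GC offsets its value was -0.19. TBX1, the pharyngeal T-box gene, had 22, 24 and 21 counts in parental and 125, 92 and 99 in KR-AA libraries. Its log2 fold change of 1.19 (adjusted p = 0.000855) did not reach the fold threshold, and it was 3.05 and past it with the length and GC offsets. TBX15 and TBX20, factors of the limb and the heart, were not detectable. TBX1 overlaps the coding gene GNB1L, named here after its values were seen, which fell by 2.42 on the log2 scale. Reads of overlapping genes cannot be told apart, as no strand is stated for the counting. Coding genes with counts also overlap SOX6 (C11orf58, log2 fold change -0.04), FOXA1 (TTC6, 0.13), SOX10 (POLR2F, -3.03) and SOX15 (MPDU1, -2.62). PINX1, which overlaps SOX7, was too low to be tested. These coding genes too were named after their values were seen.

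The FOX genes called higher were FOXC1, FOXF1, FOXF2, FOXL2, FOXO1 and FOXO3. Of 9 FOXC, FOXD, FOXF, FOXL and FOXQ genes 7 could be tested, 4 rose and none fell, beside 28.6% and 17.6% of all genes tested. FOXF1, FOXF2 and FOXL2 passed the low-count filter only through the KR-AA libraries. At an unadjusted p under 0.05 edgeR gave 5 of the 7 as higher and 2 as lower, and DESeq2 called 4 higher and none lower. FOXC1, FOXF2 and FOXQ1 lie side by side on chromosome 6, where FOXQ1 starts 77.5 kb from FOXF2 and FOXF2 starts 220.0 kb from FOXC1. The sequences before their starts are shown because these neighbours differed in their change. They cover chr6:1311848-1312097 for FOXQ1, chr6:1389326-1389575 for FOXF2 and chr6:1609665-1609914 for FOXC1, all on the plus strand of GRCh38.p14, with CpG dinucleotides in capitals.
FOXQ1: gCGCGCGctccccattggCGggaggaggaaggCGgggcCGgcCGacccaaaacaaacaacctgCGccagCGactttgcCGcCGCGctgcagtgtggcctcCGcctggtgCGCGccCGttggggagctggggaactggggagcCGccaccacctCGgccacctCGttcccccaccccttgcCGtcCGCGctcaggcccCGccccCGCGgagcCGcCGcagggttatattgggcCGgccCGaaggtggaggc
FOXF2: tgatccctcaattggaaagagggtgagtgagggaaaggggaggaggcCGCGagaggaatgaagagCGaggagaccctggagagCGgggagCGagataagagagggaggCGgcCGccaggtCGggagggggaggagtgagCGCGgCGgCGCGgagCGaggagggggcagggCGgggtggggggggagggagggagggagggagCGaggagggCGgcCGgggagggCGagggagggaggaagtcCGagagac
FOXC1: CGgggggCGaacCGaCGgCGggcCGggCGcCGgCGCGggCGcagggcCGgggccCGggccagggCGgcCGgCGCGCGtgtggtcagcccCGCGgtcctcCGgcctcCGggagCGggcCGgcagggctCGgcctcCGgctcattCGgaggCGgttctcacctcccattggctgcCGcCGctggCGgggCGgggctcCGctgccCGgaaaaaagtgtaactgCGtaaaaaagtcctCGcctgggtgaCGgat
They hold 29, 20 and 37 CpG in that order, and a relation of CpG number to the change was not tested.

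FOXF2 (ENSG00000137273), a factor of gut and palate mesenchyme, had 0 counts in every parental library and 318, 238 and 168 in the KR-AA libraries. The KR-AA mean was 7.69 ± 1.38 CPM (SD, n = 3). Against a floor of 3 counts per parental library this was at least 35.2-fold higher, and edgeR gave an adjusted p of 8.34e-08. FOXC1, a factor of mesoderm and eye development, had 57, 36 and 67 counts in parental and 1373, 1103 and 961 in KR-AA libraries. The log2 fold change of FOXC1 was 3.39 (SE 0.20, adjusted p = 1.2e-08), a 10.4-fold rise from a level that was already detectable. FOXQ1, an epithelial factor often raised in colorectal cancer, had 1349, 890 and 1251 counts in parental and 1902, 1418 and 1418 in KR-AA libraries. On the TMM scale these were 77.2 ± 12.4 and 51.0 ± 1.39 CPM (SD, n = 3) and the log2 fold change was -0.60 (adjusted p = 0.00182), not called, and it was 0.32 with scaling by library totals.

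FOXF1, which acts with FOXF2 in the mesenchyme around the gut, lies on chromosome 16 at 56.3 kb from FOXC2, which in turn is 9.54 kb from FOXL1. It had 5, 7 and 10 counts in parental and 95, 95 and 109 in KR-AA libraries, a log2 fold change of 2.73 (SE 0.35, adjusted p = 9.43e-06, edgeR). FOXC2, a factor of lymphatic vessels and mesenchyme, had at most 3 counts in every library. FOXL1, a marker of the stromal cells under the crypts, had 91, 84 and 130 counts in parental and 391, 304 and 339 in KR-AA libraries. The log2 fold change of FOXL1 was 0.73 (adjusted p = 0.00384), under the fold threshold, and 1.65 with scaling by library totals, past it. FOXL2, the ovarian granulosa cell factor on chromosome 3, had 0 counts in every parental library and 40, 18 and 26 in the KR-AA libraries, at least 4.07-fold higher (adjusted p = 6.51e-05). FOXD1, a kidney stroma factor, had 368.86, 254.21 and 397.62 counts in parental and 555.05, 407.64 and 404 in KR-AA libraries, a log2 fold change of -0.62 that turned to 0.30 with scaling by library totals. FOXD3, a neural crest factor, was not detectable.

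**Figure D2:**
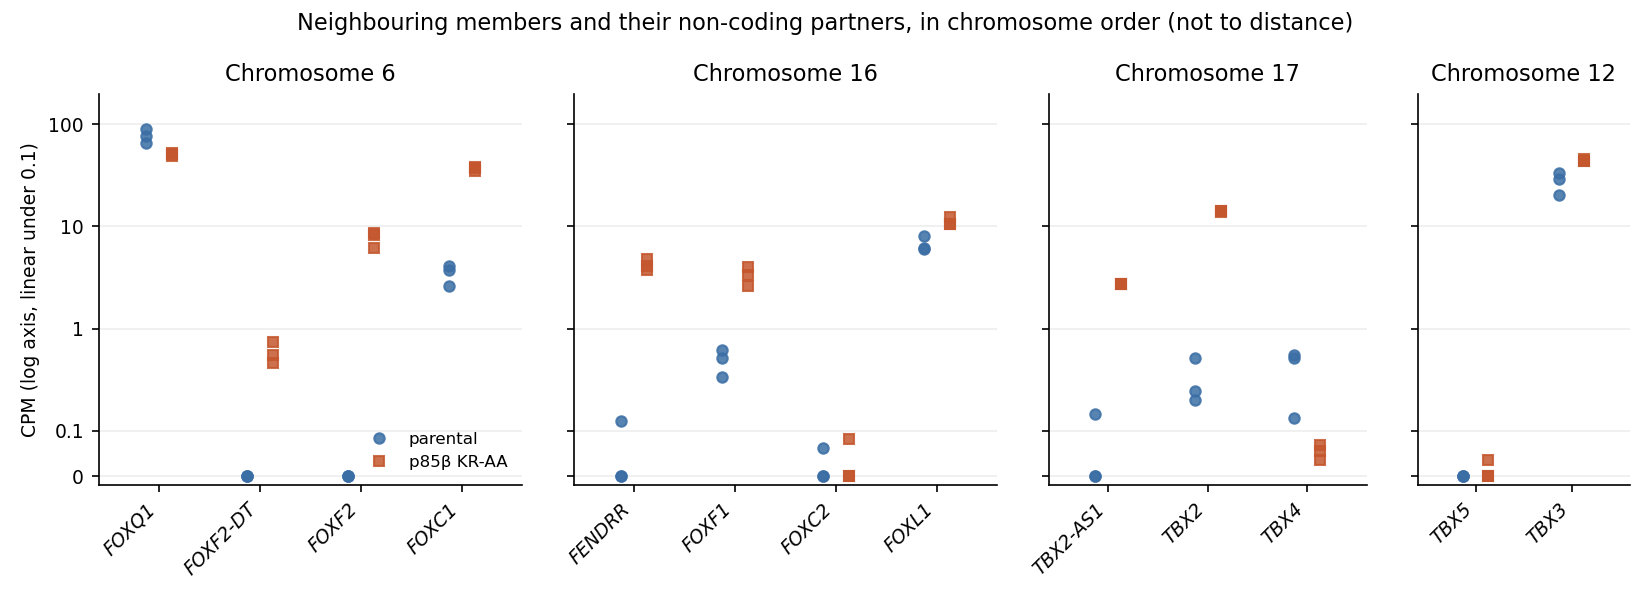
CPM (log axis, linear under 0.1) in each library of neighbouring genes in their order along 4 chromosomes, not drawn to distance, circles for parental and squares for KR-AA libraries. FOXQ1, FOXL1 and TBX3 are above 5 CPM in every library, while FOXF2, FOXF1, FENDRR and TBX2 are above 2 CPM in KR-AA libraries only.

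Of 9 annotated non-coding genes beside or overlapping the 49 genes with a mean of at least 10 counts in a group, 4 rose and 1 fell, beside 28.6% and 17.6% of all genes tested. FENDRR, a long non-coding RNA that starts 1428 bases from FOXF1 on the opposite strand without overlapping it, had 0, 0 and 2 counts in parental and 149, 107 and 132 in KR-AA libraries. FOXF2-DT, 4510 bases from FOXF2, had 0 counts in parental and 17, 21 and 15 in KR-AA libraries. TBX2-AS1, which overlaps TBX2 on the opposite strand, had 0, 2 and 0 and then 101, 78 and 75 counts, and its reads and those of TBX2 cannot be told apart where they overlap. FOXL2NB, a coding gene that starts 80 bases from FOXL2 and was picked out after its values were seen, had 0, 0 and 1 and then 34.02, 39 and 17 counts. NRSN2-AS1, which overlaps SOX12, had 25.75, 29 and 20 and then 221, 148 and 161.1 counts. All 5 were called higher by edgeR. Other coding genes close to one of the 49 without overlapping it were also named after their values were seen. SYMPK, 795 bases from FOXA3, fell by 1.61 on the log2 scale and was called. TCEA2, 197 bases from SOX18 (log2 fold change -1.43), and LMF1, 452 bases from SOX8 (-0.01), were not called. FOXD3-AS1, which overlaps FOXD3, fell by 2.12 on the log2 scale, with 23, 24 and 27 and then 16, 7 and 12 counts. SOX9-AS1 (33, 22 and 22 counts in parental, 47, 27 and 35 in KR-AA libraries), FOXD1-AS1 (log2 fold change -0.94), CEROX1 beside SOX8 (-0.49) and GATA2-AS1 (-1.20) were not called.

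The FOXA genes, pioneer factors of endoderm, did not move together. FOXA3 (ENSG00000170608, chromosome 19) had 458, 355 and 380 counts in parental and 112, 55 and 81 in KR-AA libraries. It fell by 3.32 on the log2 scale (SE 0.22, adjusted p = 2.84e-08, edgeR), from 26.6 ± 3.54 to 2.64 ± 0.63 CPM (SD, n = 3), and every KR-AA library lay below every parental one. FOXA1 had 381, 181 and 340 counts in parental and 1300, 1013 and 911 in KR-AA libraries, with a log2 fold change of 0.80 (adjusted p = 0.00306) that was not called. FOXA2, with 102, 69 and 114 and then 135, 104 and 125 counts, had a log2 fold change of -0.67 (adjusted p = 0.0131), or 0.24 with scaling by library totals. Within the FOXA group per length, a share that does not depend on library scaling, FOXA3 went from 57.2% to 69.2% of the total in parental libraries to 7.69% to 11.7% in KR-AA libraries. FOXA1 went from 20.1% to 29.2% to between 74.2% and 80.8%, so that the leading FOXA gene differed between the groups in every library.

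Genes of endoderm and liver that FOXA and GATA factors are known to act on did not follow one direction. Of 12 listed, 4 could be tested and none was called in either direction. An unadjusted p under 0.05 was given by edgeR to 1 gene as higher and 1 as lower, and DESeq2 called 0. HNF4A, a nuclear receptor of gut and liver, had 331, 209 and 356 counts in parental and 664, 497 and 500 in KR-AA libraries (log2 fold change -0.14, adjusted p = 0.466). Albumin, transthyretin and apolipoprotein B transcripts (ALB, TTR and APOB) had at most 1 count in every library.

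FOXO1 and FOXO3 are the members that PI3K signaling controls most directly, since AKT phosphorylates them and keeps them out of the nucleus. The values below are RNA levels and do not measure that phosphorylation. In the paper's blots the KR-AA knock-in did not change AKT phosphorylation. Knockout of p85β in DLD1 cells with only the mutant PIK3CA allele did not change that of AKT or FOXO. FOXO3 (ENSG00000118689, chromosome 6) had 78.4, 92.44 and 111.77 counts in parental and 1691.47, 1293.1 and 1219.4 in KR-AA libraries. The log2 fold change was 2.85 (SE 0.17, adjusted p = 1.38e-08, edgeR), and the fractions in its counts show that some reads were divided between FOXO3 and other loci, so its level is uncertain to that degree. FOXO1 had 24, 19 and 29 and then 275, 243 and 213 counts, a log2 fold change of 2.31 (SE 0.23, adjusted p = 8.91e-07). Both are long transcripts, and with the same offsets their log2 fold changes were 1.16 and 0.55, neither past the fold threshold. FOXO genes outside the 49 did not rise on the TMM scale, since FOXO4 had a log2 fold change of -0.88, not called, and FOXO6 fell by 2.38. The call of FOXO6 was lost with scaling by library totals and with the length and GC offsets.

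Of 22 listed FOXO target genes 21 were matched and tested, 10 rose (47.6%) and 1 fell (4.76%), beside 28.6% and 17.6% of all genes tested, with a median log2 fold change of 1.42 beside 0.32 for all genes tested. Among those that rose, PDK4, a kinase that restrains pyruvate oxidation, had 1, 0 and 1 counts in parental and 388, 323 and 223 in KR-AA libraries. IRS2, the insulin receptor substrate, had 23.03, 16 and 37 and then 1872, 1435.57 and 1176.95 counts, a log2 fold change of 4.83. SESN3, a sestrin that lowers mTORC1 activity, had a log2 fold change of 4.98, RICTOR, a subunit of mTORC2, one of 3.56, and the repressor BCL6 one of 3.46. KLF2, a zinc finger factor, fell by 1.64 on the log2 scale and was not called without KR-AA replicate 3. With the length and GC offsets 4 of the 21 were called higher in place of 10, beside 13.1% of all genes tested.

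**Figure D3:**
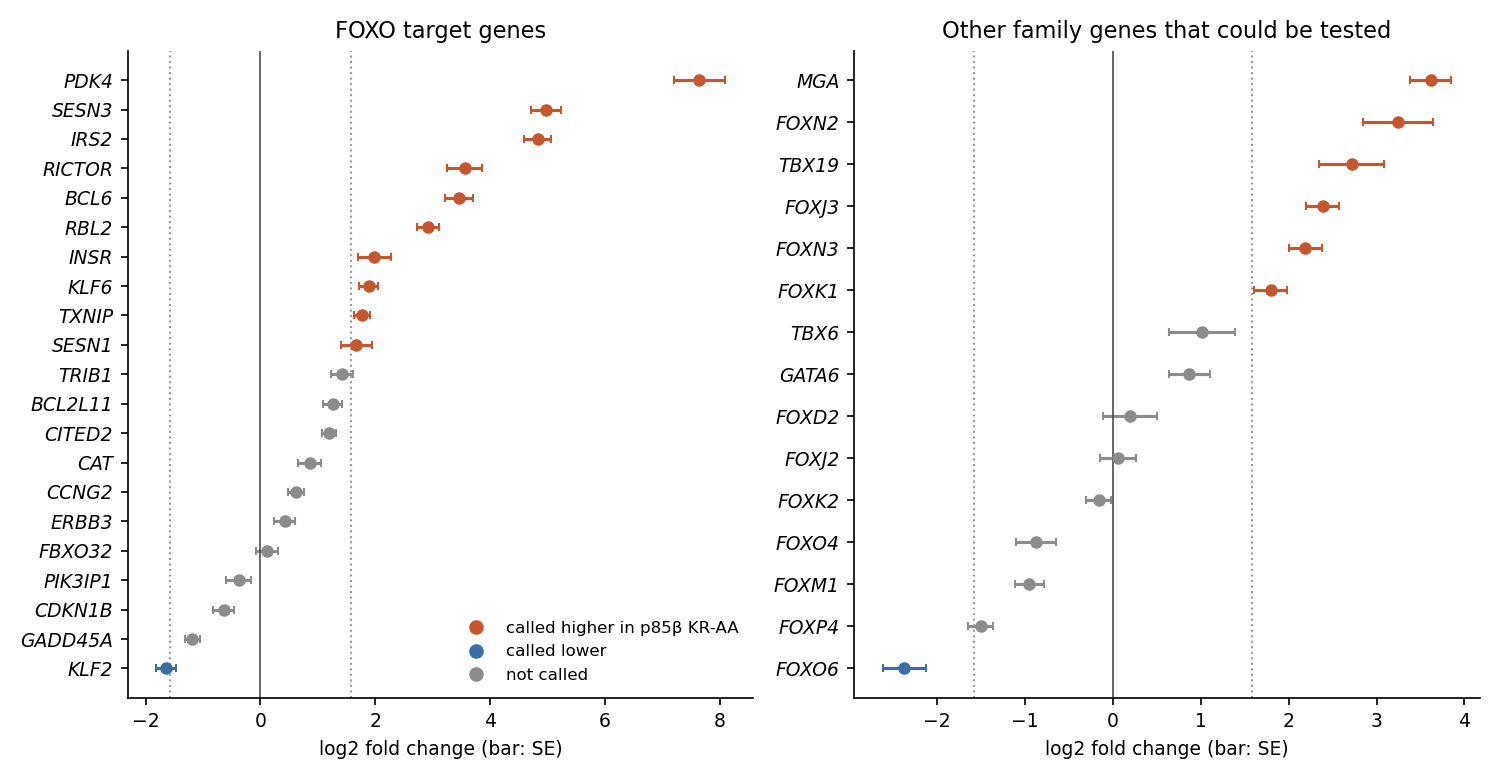
Log2 fold change, KR-AA over parental, with bars for the standard error, of the 21 FOXO target genes and of the 15 other genes of these families that could be tested, with dotted lines at a fold of 3 in each direction. The 10 FOXO targets called higher lie between 1.68 and 7.65 and KLF2 is the single one called lower, and MGA has the highest value among the other family genes.

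FOXP1, a factor of B cells and gut epithelium, had 27, 25 and 37 counts in parental and 191, 159 and 155 in KR-AA libraries. Its log2 fold change of 1.47 (adjusted p = 5.75e-05, edgeR) lay just under the threshold of 1.58. FOXN1, the thymic epithelium factor, had 49, 18 and 53 and then 183, 147 and 167 counts, a log2 fold change of 1.03 (adjusted p = 0.00629), and it overlaps the coding gene RSKR, also named after its values were seen, which rose by 5.57. FOXP2, a factor of neural circuits and lung, had 0 counts in parental and 5, 3 and 2 in KR-AA libraries, too few for a fold. FOXJ1, which drives motile cilia, had 6, 1 and 6 and then 2, 0 and 2 counts, so that the parental level was 6.70 times as high with an exact 95% Poisson interval of 2.07 to 28.2.

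SOX9 was the most abundant SOX gene per length in KR-AA cells. SOX9 (ENSG00000125398, chromosome 17), which maintains crypt progenitors and directs cartilage formation, had 886, 428 and 1016 counts in parental and 7642, 6368 and 6211 in KR-AA libraries. It rose by 2.10 on the log2 scale (SE 0.22, adjusted p = 1.34e-06, edgeR), its mean level going from 50.9 ± 17.2 to 218.8 ± 9.28 CPM (SD, n = 3), and parental replicate 2 was the lowest of its group. Its share of the SOX total per length was 21.5% to 32.0% in parental and 61.5% to 65.5% in KR-AA libraries. SOX8, its close paralog, went in the opposite direction, with 116, 63 and 93 counts in parental and 58, 48 and 37 in KR-AA libraries. SOX8 fell by 1.97 on the log2 scale (SE 0.26, adjusted p = 1.32e-05), and the value was -1.05 with scaling by library totals, which is not past the fold threshold. SOX10, the neural crest member of the same subfamily, had 4 counts in 1 KR-AA library and none elsewhere.

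SOX6, a partner of SOX9 in cartilage that has no activation domain of its own, had 0, 0 and 7 counts in parental and 218, 173 and 106 in KR-AA libraries. The log2 fold change was 5.05 (SE 0.60, adjusted p = 5.09e-06, edgeR). Parental replicate 3 held all the parental counts of SOX6, and without it the fitted log2 fold change was 10, a value that depends on the prior count. SOX5, its paralog, had no count in any library, and SOX13, the third of the subfamily, had 767.53, 469.69 and 711 and then 1341.6, 835 and 965.92 counts. The log2 fold change of SOX13 was -0.36 (adjusted p = 0.0705), the groups overlapped, and it was 0.56 with scaling by library totals.

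Cartilage genes that SOX9, SOX5 and SOX6 are known to act on were mostly at or near 0 in parental cells. Of 10 listed 5 could be tested, 4 rose, beside 28.6% of all genes tested, and none fell, also at an unadjusted p under 0.05 or with DESeq2. All 4 passed the low-count filter only through the KR-AA libraries, and with at least 10 counts in every library 1 of the 10 could be tested and none was called. COL2A1, the chief collagen of cartilage, had 2, 0 and 2 counts in parental and 588, 400 and 522 in KR-AA libraries. ACAN, the cartilage proteoglycan, had 0 and then 32, 17 and 35 counts, MATN3, a matrilin, had 6, 11 and 6 and then 166, 125 and 95, and SNAI2, a repressor of epithelial genes, had 2, 0 and 0 and then 173, 151 and 109. COL11A2 had a log2 fold change of -0.18 (adjusted p = 0.53), and COL9A1, COMP, HAPLN1 and PRRX1 had at most 4 counts in any library.

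The SOXF genes, factors of vessel endothelium, differed in direction. SOX7 had 4, 0 and 3 counts in parental and 51.03, 59 and 26.29 in KR-AA libraries, a log2 fold change of 3.20 (SE 0.60, adjusted p = 0.000303, edgeR) that was 3.80 without parental replicate 1 and 2.66 without parental replicate 2. SOX18 had 29, 34 and 31 and then 30, 18 and 8 counts, and fell by 1.82 on the log2 scale (SE 0.38, adjusted p = 0.00064). The fall of SOX18 rests on scaling and on 1 library, since the value was -0.89 with scaling by library totals, 0.08 with length and GC offsets and -1.52 without KR-AA replicate 3, none of them called. SOX17, also an endoderm factor, had no count in any library. Of 7 endothelial markers 3 could be tested. KDR rose, with 2, 0 and 0 counts in parental and 33, 22 and 17 in KR-AA libraries, and VWF fell, with 39, 14 and 49 and then 26, 14 and 23. CDH5 and TEK had at most 3 counts in any library and EMCN had none, and the summed level of 7 endothelial markers was 1.38 to 3.12 CPM in parental and 1.85 to 2.13 CPM in KR-AA libraries.

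SOX4, a progenitor and tumour-associated factor of the SOXC group, had 285, 232 and 407 counts in parental and 1891.98, 1575.99 and 1360 in KR-AA libraries. Its log2 fold change of 1.35 (SE 0.17, adjusted p = 7.89e-06, edgeR) was under the fold threshold. SOX12 had 995, 804 and 982 and then 1638, 1187 and 1166 counts, a log2 fold change of -0.53 (adjusted p = 0.00211) that was 0.40 with scaling by library totals. Per length, SOX12 made up 75.3% to 81.5% of the SOXC total in parental and 48.8% to 52.3% in KR-AA libraries, the rest being almost all SOX4. SOX11, the neural member, had 1 count in all 6 libraries. SOX15, which has no close paralog, had 16, 11 and 14 and then 20, 13 and 6 counts, a log2 fold change of -1.13 (adjusted p = 0.0235) that was not called. It overlaps the far more abundant coding gene MPDU1, which fell by 2.62 on the log2 scale, so its few counts are uncertain. Of the SOXB genes of stem cells and neural progenitors, SOX1 and SOX14 had no count, SOX2 had at most 3, and SOX21 had 0 in parental and 4, 2 and 5 in KR-AA libraries.

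**Figure D4:**
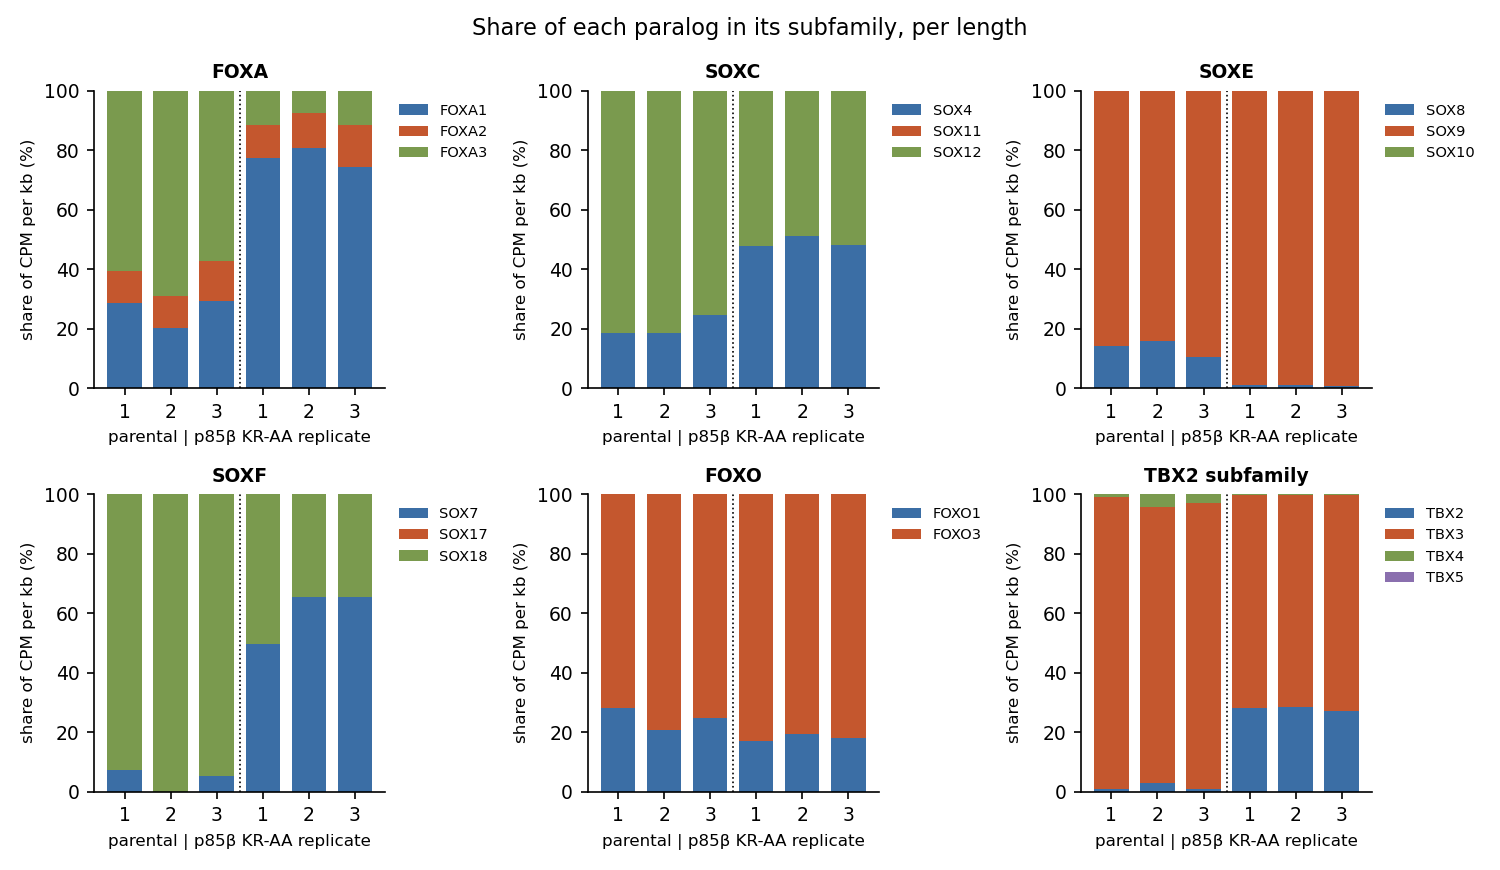
Share (%) of each paralog in the summed CPM per kb of its subfamily, 1 bar for each library, parental replicates to the left and KR-AA replicates to the right of the dotted line. FOXA3 takes 57.2% to 69.2% of the FOXA total in parental and 7.69% to 11.7% in KR-AA libraries, and the SOXC, SOXF and TBX2 groups also differ in make-up between the groups in every library.

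GATA2 was the GATA gene with a level that could be tested, and none of the 4 genes was called. GATA2, known for blood stem cells and for some epithelial tumours, had 625.34, 341.43 and 529.62 counts in parental and 715.81, 527.37 and 552.93 in KR-AA libraries. Its log2 fold change was -0.77 (adjusted p = 0.00201, edgeR), and 0.15 with scaling by library totals. It overlaps GATA2-AS1 on the opposite strand, which had 650.66, 495.57 and 599.38 and then 601.19, 495.63 and 468.07 counts, so the division of reads between both genes is uncertain. GATA3, a factor of T cells and luminal epithelia, had 11, 4 and 6 and then 10, 8 and 11 counts. The gut endoderm factors GATA4 and GATA5 had no count in parental libraries, and 3, 4 and 0 and 3, 7 and 4 counts in KR-AA libraries, too few for a fold.

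**Figure D5:**
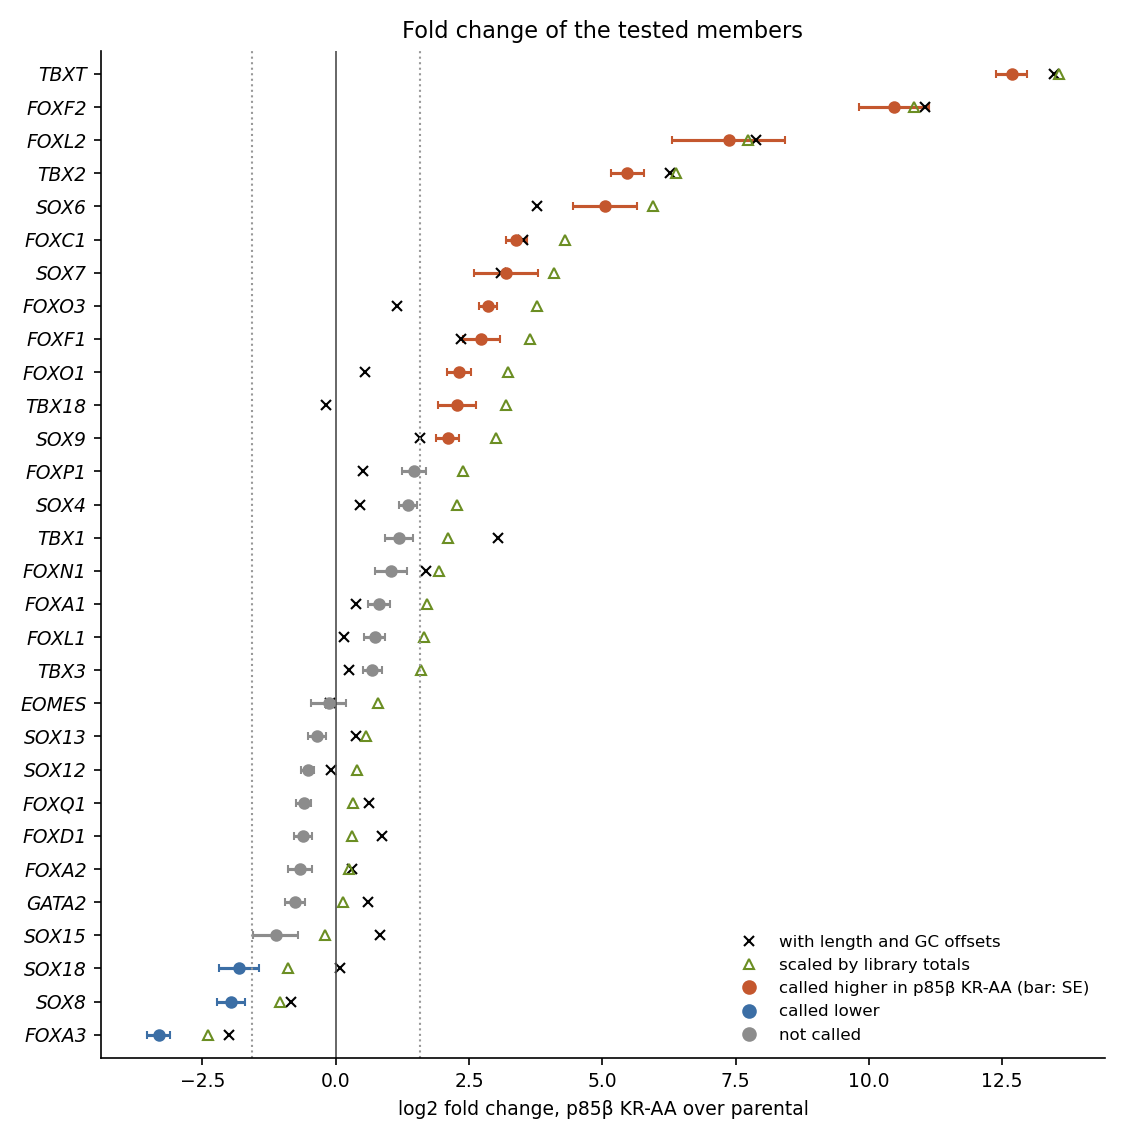
Log2 fold change, KR-AA over parental, of the 30 tested genes with TMM scaling (circles, bars for the standard error, coloured by call), with scaling by library totals (triangles) and with length and GC offsets (crosses), with dotted lines at a fold of 3. The circles of FOXF2 and FOXL2 depend on the prior count, as both had no parental count, and triangles lie to the right of every circle, which carries SOX12, SOX13, FOXA2, FOXD1, FOXQ1, GATA2 and EOMES across 0.

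The genes that rose and those that fell had different median lengths and base compositions. The 12 called higher had a median length of 3476 bases and a median GC content of 51.7%, and the 3 called lower had 1923 bases and 63.8%. All tested genes showed the same order, with 4330 bases and 42.7% among those called higher and 1709 bases and 58.4% among those called lower. The offsets remove differences between libraries in a smooth trend of expression with length and with GC content. With them 10 of the 30 genes were called higher and 1 lower, beside 13.1% and 12.1% of all genes tested. SOX8, SOX9, SOX18, FOXO1, FOXO3 and TBX18 were no longer called, SOX9 with a log2 fold change of 1.58 (1.577) at the very edge, while FOXN1 and TBX1 were gained. TBXT, TBX2, FOXF2, FOXL2, FOXC1, FOXF1, SOX6, SOX7 and FOXA3 were called with and without the offsets. Whether length or GC content acts on these counts through the libraries or through the cells was not tested.

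The other genes of these families, 37 in all, included 15 that could be tested. Of these 6 rose (40%) and 1 fell (6.67%), beside 28.6% and 17.6% of all genes tested. MGA, a T-box repressor of the PRC1.6 complex, had the largest change, with 26, 16 and 22 counts in parental and 655, 565 and 407 in KR-AA libraries and a log2 fold change of 3.62 (SE 0.24, adjusted p = 2.55e-08, edgeR). FOXN2 (3.24), TBX19 (2.72), FOXJ3 (2.39), FOXN3 (2.19) and FOXK1 (1.80) were the others with a called rise, given as log2 fold changes. The median over the 15 was 0.87, beside 1.11 for the 30 genes above and 0.32 for all genes tested. With the length and GC offsets 2 of these 15 were called higher in place of 6, and 0 lower. Among all genes tested 13.1% were called higher with the offsets.

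Short motifs that these factors bind were looked for in the promoter windows on both strands, without overlap between the motifs. The T-box half-site AGGTGT was in 7.84% of the 51 windows of these genes and in 11.4% of all windows, the FOX motif TGTTTAC in 5.88% and 3.42%, the SOX motif ACAAAG in 11.8% and 16.1%, and the GATA motif AGATAA in 5.88% and 10.3%. Of the 4 stretches printed above, the one before FOXF2 holds AGATAA and the others hold none of the 4 motifs. A match is a description of these letters and was not tested as a binding site.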

How the data were processed

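RNA-seq libraries of DLD1 parental and p85β K477A/R478A cells, 3 per group as labelled, were analysed. The authors trimmed paired-end reads with SeqPrep and Sickle and deposited estimated counts per Ensembl gene, not normalized, with a gene length. The submitters' processing notes name HISAT2 2.1.0, RSEM 1.3.1, DESeq2 1.24.0 and the build hg18, without their roles. Replicates were not pooled. The annotation and any use of strand are not given in the sources used here.

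Estimated counts were rounded to whole numbers, as the planned test was for whole counts, and tested in R 4.3.3 with edgeR 4.0.16 (low counts filtered by filterByExpr at 10 counts and a total of 15, TMM, quasi-likelihood F test, Benjamini-Hochberg adjustment, no covariate), with the study's thresholds of a fold of 3 and an adjusted p of 0.01. An exact permutation test of 3 against 3 cannot go below 0.1, so none is given. Standard errors were obtained from F and the log2 fold change. Totals ranged from 20301396 to 26712816 counts. Fractional or overlapping reads make the levels of paralogs and antisense pairs uncertain.

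Symbols and positions come from GENCODE release 44 on GRCh37, which matched 56745 of 58884 identifiers, and promoters from the RefSeq table on GRCh38.p14, which held 30 of the 49 genes. The build of the counts may differ from both. CPM per kb uses the deposited length. Groups without counts were given a floor of 3 counts per library, and ratios of few counts an exact conditional interval.

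Alternatives were DESeq2 1.42.0, scaling by library totals, no filter, at least 10 counts in every library, a replicate block, each library left out, other thresholds, a fold tested against 3, and offsets per library from robust splines (5 degrees of freedom) on length and GC content. The code was checked on simulated counts. The plan allowed naming all 49 genes and any marker. From each gene list it allowed at most the 6 called genes with the largest change and an average log2 CPM of at least 1. It further allowed non-coding genes within 5 kb of or overlapping a member with a mean of at least 10 counts. Other list genes were also named, outside this rule. They are KLF2, ACAN, TBX19 and genes that were not called or could not be tested, among them HNF4A, FOXO4, COL11A2, GSC and ALB. The members and the lists were chosen with earlier results of these data known.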

Additional observations from a re-analysis of the deposited data

How the results depend on the processing

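Of the 30 tested genes, 12 were called higher and 3 lower, with a median log2 fold change of 1.11. Scaling by library totals gave 19 higher, 1 lower and a median of 2.02, while the median of all genes moved from 0.32 to 1.24 and the share of calls that were higher from 61.9% to 87.9%. Requiring at least 10 counts in every library left 20 genes to test, 5 of them higher. The number called lower was 1 with the fold tested against 3, with a fold of at least 5 and with length and GC offsets. These offsets moved the median to 0.61 (all genes -0.13) and turned SOX18 to 0.080 and TBX18 to -0.19. Leaving out 1 library at a time gave 12 higher each time, 2 to 3 lower, and a median of 0.70 (without parental replicate 2) to 1.18. Among the listed genes of other kinds, 20 were called higher and 3 lower. They were 11 higher with the offsets, 1 lower with scaling by library totals, and 5 lower with a fold of at least 2 and an adjusted p under 0.05. Apart from the causes that lie in the construction of an alternative, the cause was not tested. Among 380 values of single genes over the 13 alternatives that give fold changes, 347 kept their direction and their side of the thresholds, 7 lost and 10 gained a call, and 16 reversed in sign, 14 of them of genes that were not called. The latter were SOX12 (0.40), SOX13 (0.56), FOXA2 (0.24), FOXD1 (0.30), FOXQ1 (0.32), GATA2 (0.15) and EOMES (0.79) with scaling by library totals, SOX13 (0.38), SOX15 (0.83), FOXA2 (0.31), FOXD1 (0.86), FOXQ1 (0.63) and GATA2 (0.60) with the offsets, and EOMES (0.068) with at least 10 counts in every library. The fold tested against 3 and a fold of at least 5 each lost 5 calls, and a fold of at least 2 with an adjusted p under 0.05 gained 5.

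The replicate numbers did not pair the libraries, as same-numbered libraries had correlations of -0.14, 0.12 and -0.04 in their deviations from the group means. With the replicate block the genes called were 12 higher and 3 lower, with a median of 1.14, and no call of the 30 changed, also with robust moderation, which was added after the data were seen. With a level of 3 counts as the floor, 11 of the 49 genes were not detectable in either group.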
